A study of Mus musculus with 4 samples.

Results

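The 10 genes described here are read-outs of the crypt base of the mouse intestine and of canonical Wnt signalling: Lgr5, Ascl2, Smoc2, Olfm4, Tnfrsf19, Rnf43, Znrf3, Axin2, Sp5 and Mex3a. They were chosen by symbol and not by a cut on their values, though with earlier results of these data known. Each matched 1 of the 31054 features in every matrix. RNA was counted in single intestinal epithelial cells that had been sorted by flow cytometry from mice of 1 genotype, Bmi1-GFP, a reporter in which GFP marks transcription of the Bmi1 locus. All 4 libraries carry that reporter, so none is a wild-type control. They are an embryonic day 12.5 (E12.5) intestine, an embryonic day 17.5 (E17.5) small intestine, an adult intestine and an irradiated adult intestine, with 1 library each. The radiation dose, the time after irradiation, the number, age and sex of the adult animals and the sort gates are not in the labels used here.

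In the crypt base, Wnt ligands engage Frizzled and LRP receptors, the destruction complex no longer degrades beta-catenin, and beta-catenin with TCF/LEF factors switches on target genes. R-spondins bind Lgr receptors and withdraw the ubiquitin ligases that would otherwise remove Frizzled from the cell surface. Crypt base columnar stem cells, which renew the adult epithelium, are the best known site of this signalling in the intestine, while crypts themselves form only after birth in the mouse. Lgr5, an R-spondin receptor and the classical marker of those cells, lies at chr10:115450311-115587780 (minus strand, GRCm38). Rnf43 (chr11:87662722-87735539, plus) and Znrf3 (chr11:5276324-5444847, minus) encode the ubiquitin ligases that clear Frizzled. Axin2 (chr11:108920349-108950783, plus) is a scaffold of the destruction complex and a negative feedback target of the pathway. Sp5 (chr2:70474923-70477729, plus) is a zinc-finger transcription factor and direct target, and Tnfrsf19 (chr14:60963875-61046490, minus), also called Troy, is a receptor of the tumour necrosis factor family that marks crypt stem cells. Ascl2 (chr7:142966829-142969264, minus) is a basic helix-loop-helix factor needed for stem cell identity. Smoc2 (chr17:14279506-14404790, plus) encodes a secreted matrix protein, Olfm4 (chr14:79984081-80023139, plus) a secreted olfactomedin glycoprotein, and Mex3a (chr3:88532395-88541396, plus) an RNA-binding protein reported in slowly cycling crypt cells. All 10 are protein-coding in the annotation.

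A floor of 500 detected genes and a ceiling of 20% mitochondrial UMIs left cells numbering 4226 (E12.5), 4602 (E17.5), 3788 (adult) and 3184 (irradiated adult), and 153 to 193 putative doublets were removed from each. The median per kept cell was 18098 UMIs (unique molecular identifiers, each 1 captured RNA molecule) at E12.5 and 10994 at E17.5, then 3606 for the adult and 8547 for the irradiated adult. Levels are CPM, UMIs per 1000000 UMIs, from sums over cells, with exact Poisson 95% intervals. Shares of cells with a UMI were taken after each cell was thinned to 2000 UMIs and carry exact Clopper-Pearson intervals. Both kinds of interval hold counting error alone. Since each group is a single library, nothing could be tested or checked in replicates, and a member is called higher or lower in a library only when its log2((CPM + 1)/(CPM + 1)) ratio is at least 1 in size, where either of the libraries had 10 or more UMIs of the gene. The share of all genes called the same way is given beside the count.

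Cell classes were rebuilt from marker genes after clustering without the 10 genes, and are written with "-like". The sorted cells differed in type between libraries. Enteroendocrine-like cells made up 1361 of the 4409 kept cells at E17.5, 2220 among the 3597 adult cells and 2075 among the 3031 after irradiation. Tuft-like cells numbered 975 and 289 in these adult libraries. At E17.5, 919 cells had pancreatic, mesenchymal, smooth muscle or mesothelial markers, and at E12.5, 143 had pancreatic markers. Although the labels name epithelium only, these cells are not counted as epithelial below. Unnamed cells stayed in, among them 37 E12.5 cells led by Acta2 and Col3a1, with Smoc2 at 71.5 CPM. At E17.5 they were 99 cells led by the islet hormone gene Ppy, 120 led by Spp1 and Neurog3, and 14 with low epithelial markers. The epithelial cells named neither enteroendocrine-like nor tuft-like, called the remaining epithelial cells below, numbered 3907 at E12.5 and 2129 at E17.5, with 402 adult and 667 irradiated adult cells. The 3907 and 2129 include 11 and 99 unnamed cells nearest the enteroendocrine marker list, with islet hormone genes among their top genes. The 667 include 391 shallow cells in 3 clusters whose nearest marker list was the enteroendocrine one. In 311 of them its 12 markers summed to 14874 CPM, against 35332 in the enteroendocrine-like class. A sum of UMIs mixes the number of cells of a type with the RNA per cell, and fewer cells and less RNA per cell cannot be told apart in it. Any pair of libraries shared 6 to 12 cell barcodes.

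The 10 genes did not vary together between libraries. Summed over all epithelial cells of a library, Mex3a, Sp5, Rnf43, Znrf3 and Tnfrsf19 were highest at E12.5, while Olfm4 was nearly undetected there. At E17.5 Ascl2, Smoc2 and Olfm4 were higher, and in the adult Olfm4, Smoc2 and Sp5 were higher again. The irradiated adult held far less Olfm4 and less Ascl2 and Smoc2 than the adult, while the intervals of Sp5 overlapped.

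Lgr5 had a narrow range in the sums over all epithelial cells, though not by class, as given below. It stood at 8.18 CPM (95% interval 7.56 to 8.84) in E12.5 epithelial cells, 13.3 (12.4 to 14.3) at E17.5, 11.4 (10.2 to 12.6) for the adult and 7.38 (6.55 to 8.28) after irradiation. The intervals of E17.5 and the adult touched, as did those of E12.5 and the irradiated adult, so within each of these pairs no order can be given. Ascl2 stood at 3.34 CPM (2.95 to 3.76), 16.2 (15.2 to 17.2), 12.7 (11.4 to 14.0) and 4.82 (4.16 to 5.57) in the same order, with no overlap between any of the intervals.

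Olfm4 covered the widest range of the 10. It was 0.43 CPM at E12.5, from 34 UMIs in 3907 cells, 83.5 at E17.5, 568 for the adult, from 16885 UMIs, and 10.1 after irradiation, from 392 UMIs. Smoc2 was 1.54 CPM at E12.5, 15.7 at E17.5, 37.3 for the adult and 15.8 after irradiation. The E17.5 and irradiated adult values of Smoc2 are not separated by their intervals (14.7 to 16.7 and 14.6 to 17.1).

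The negative regulators Rnf43 and Znrf3 were highest at E12.5 and lowest in the irradiated adult. Rnf43 was 24.6, 21.0, 14.7 and 12.9 CPM at E12.5, E17.5, adult and irradiated adult, and Znrf3 was 17.6, 6.92, 6.08 and 5.03. For both ligases the adult and irradiated adult intervals overlapped. These are values over all epithelial cells. By class, Rnf43 was above its E12.5 level in the crypt progenitor-like cells of E17.5 and the adult, given below. Axin2, the feedback scaffold, had another order, with 9.21 CPM at E12.5, 16.5 at E17.5, 32.8 for the adult and 26.3 after irradiation.

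Sp5, Tnfrsf19 and Mex3a were highest in the E12.5 library over all epithelial cells. Sp5 was 26.8 CPM at E12.5, 1.25 at E17.5, 5.95 for the adult and 5.80 after irradiation. Tnfrsf19 was 11.4, 1.35, 0.91 and 1.19 CPM. Mex3a was 90.4, 6.68, 3.03 and 3.56 CPM, and at E12.5 it was in 16.5% of cells thinned to 2000 UMIs, more than any other member. In all 3 the E12.5 value lay above the other libraries with no overlap of intervals. An irradiated cluster, described below, held Sp5 near its E12.5 level.

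**Figure D1:**
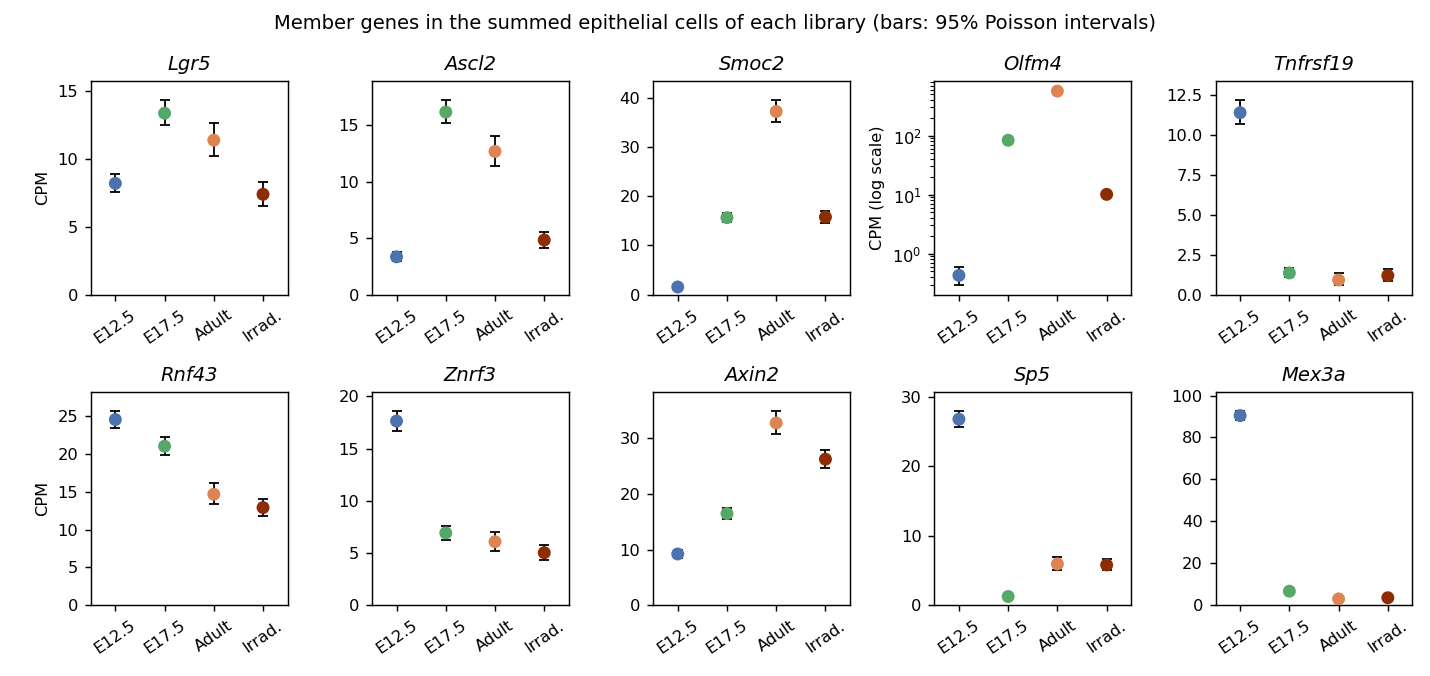
Level of each of the 10 genes in the epithelial cells of the 4 libraries, in CPM (Olfm4 on a log axis, the others from 0), with exact Poisson 95% intervals as bars. Olfm4 runs from 0.43 CPM at E12.5 to 568 in the adult, while Mex3a, Sp5 and Tnfrsf19 are highest at E12.5.

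The first comparison set E17.5 against E12.5, stages after and before villi emerge from the flat gut tube. The E12.5 library is of intestine and the E17.5 library of small intestine, so stage and region cannot be told apart. Clusters led by posterior Hox genes at E12.5 are described below. In all epithelial cells 3 of 10 members were at least 2-fold higher at E17.5 (13.3% of the 16681 genes tested were higher) and 4 were lower (14.5% of genes were lower). Ascl2 was 4.84-fold higher (log2 ratio 1.98), Smoc2 10.2-fold (2.72) and Olfm4 195-fold (5.89). Lower were Sp5 by 21.4-fold (-3.63), Mex3a by 13.5-fold (-3.57), Tnfrsf19 by 8.43-fold (-2.40) and Znrf3 by 2.55-fold (-1.23). Lgr5 (0.64), Axin2 (0.77) and Rnf43 (-0.21) stayed under the 2-fold line. In the remaining epithelial cells the same 3 members were higher (1826 of 16340 genes were) and the same 4 lower (2770 genes were).

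The E12.5 cells fell into 12 gut clusters of at least 50 cells, which are described next because Sp5 split them. In 6 clusters with Osr2, a zinc-finger factor, at 160 to 203 CPM, Sp5 stood between 33.6 and 59.9 CPM. In the other 6, where Osr2 was 23.9 to 116 CPM, Sp5 was 2.46 to 10.6 CPM, and the ranges did not overlap. Osr2 was chosen as a landmark after its values had been seen. Ascl2 followed the same split without overlap, at 3.07 to 6.94 CPM against 0.83 to 2.67.

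Axin2 and Tnfrsf19 followed it with overlap. Axin2 was 8.39 to 13.6 CPM in the clusters of high Osr2 and 3.94 to 9.42 in the others, and Tnfrsf19 9.40 to 20.4 against 4.59 to 17.8. The single cluster that closed both gaps, with Axin2 at 9.42 and Tnfrsf19 at 17.8 CPM, had a median of 1120 UMIs per cell against 18098 in the library. Lgr5 was 5.37 to 13.3 CPM in the clusters of high Osr2 and 2.98 to 9.18 in the others.

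Among the clusters of lower Osr2, the 4 high in Sfrp5, a secreted Wnt inhibitor (82.3 to 176 CPM), had Lgr5 at 3.08 to 7.93 CPM. A cluster led by Postn and Hoxb9, a posterior homeobox gene (68.1 CPM), had Lgr5 at 9.18 CPM with Sp5 at only 2.46 and Ascl2 at 0.98. The cluster led by the hindgut gene Hoxb13 (229 CPM) was the only one of the 12 with Smoc2 above 3 CPM, at 24.3. In the pancreatic progenitor-like cells of this library Mex3a was 133 CPM, Sp5 4.2 and Lgr5 2.1.

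Across the 12 clusters Sp5 correlated with Axin2 at Pearson r = 0.91, with Ascl2 at 0.91 and with Tnfrsf19 at 0.80. Lgr5 correlated with Znrf3 at 0.80 and with Sfrp5 at -0.77. The clusters share 1 library and differ in depth, so these values are descriptions with no test.

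**Figure D2:**
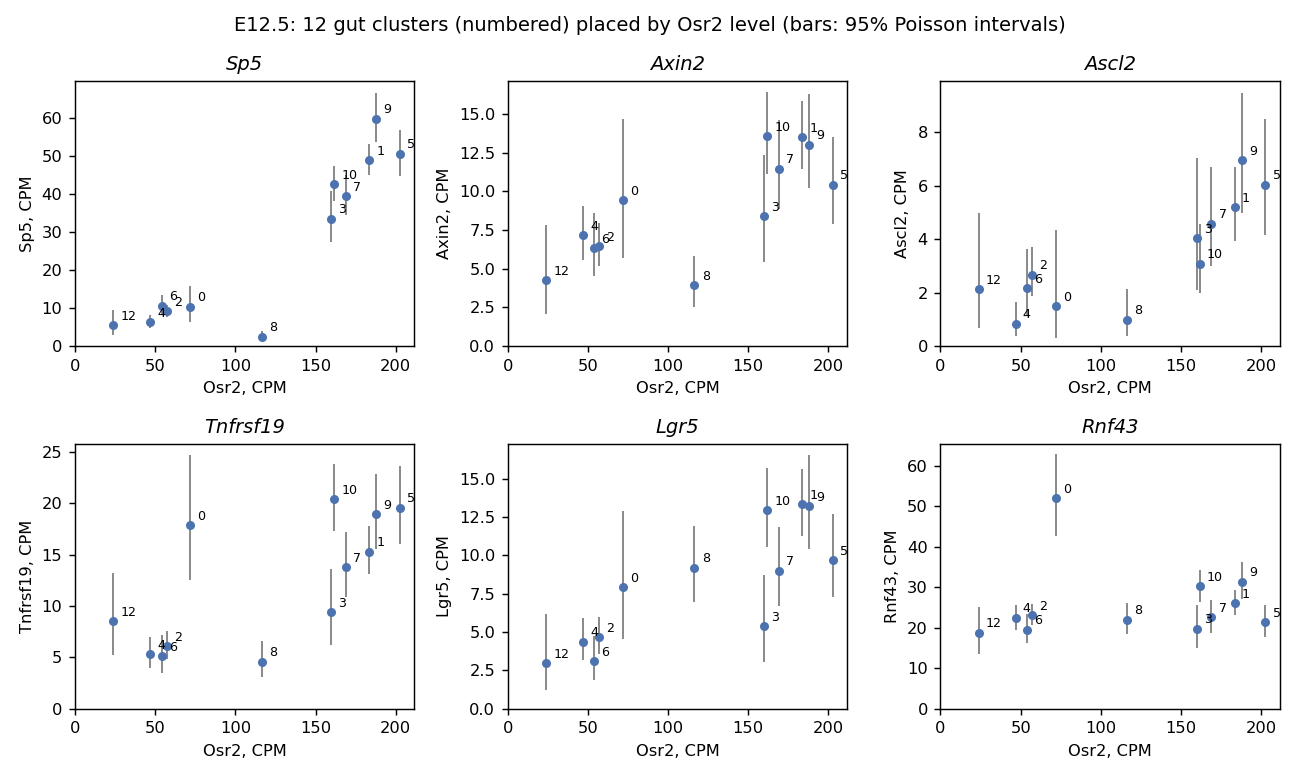
Levels of members in the 12 E12.5 gut clusters, in CPM, against the level of Osr2 in CPM, with 1 numbered point per cluster and exact Poisson 95% intervals as bars. Sp5 lies between 33.6 and 59.9 CPM in the clusters of high Osr2 and between 2.46 and 10.6 in the others.

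Promoter sequence is shown for Sp5 and Tnfrsf19, the members that separated or followed this E12.5 split and hold a TCF/LEF word, and for Axin2, a Wnt target that holds none. Each is the 250 bases before a RefSeq start site (GRCm38.p6), 5′ to 3′ on the gene's strand, at chr2:70474673-70474922 (plus), chr14:61037988-61038237 (minus, 1 of 2 Tnfrsf19 promoters in the table) and chr11:108920099-108920348 (plus). Capitals mark the word CTTTGNN on either strand, with A or T at both N.
Sp5: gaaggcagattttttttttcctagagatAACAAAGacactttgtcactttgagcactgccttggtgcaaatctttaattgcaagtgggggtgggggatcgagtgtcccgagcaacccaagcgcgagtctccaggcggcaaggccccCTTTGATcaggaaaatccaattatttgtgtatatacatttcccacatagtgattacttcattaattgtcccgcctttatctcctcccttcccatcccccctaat
Tnfrsf19: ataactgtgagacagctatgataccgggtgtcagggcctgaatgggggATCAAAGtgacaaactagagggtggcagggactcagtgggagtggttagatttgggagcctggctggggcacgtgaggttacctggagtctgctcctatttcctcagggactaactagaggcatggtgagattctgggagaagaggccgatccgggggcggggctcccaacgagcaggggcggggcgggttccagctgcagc
Axin2: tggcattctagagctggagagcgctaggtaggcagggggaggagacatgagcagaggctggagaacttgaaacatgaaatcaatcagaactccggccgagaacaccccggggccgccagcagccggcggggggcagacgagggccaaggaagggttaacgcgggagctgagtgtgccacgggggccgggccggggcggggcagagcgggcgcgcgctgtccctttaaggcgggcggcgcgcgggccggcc

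The Sp5 window holds AACAAAG starting 222 bases before the start site and CTTTGAT at 104 bases. The Tnfrsf19 window holds ATCAAAG at 202 bases. Of 32851 promoters of this length, 14.8% hold at least 1 such word and 1.43% hold 2 or more. RefSeq promoters were matched for 7 members, 9 in all, and only these 2 hold a word. Lgr5, Smoc2 and Znrf3 had no match. A word is a match of letters, not a binding site, and its absence from this window says nothing about the factor.

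The second comparison set the adult against E17.5, which is also the first group of the comparison above, so the comparisons share that library. Stage and region cannot be told apart here either, as the adult library is of intestine and the E17.5 library of small intestine. In all epithelial cells 3 members were higher in the adult (12.5% of genes) and 0 were lower (12.7%). These were Smoc2 (2.38-fold), Olfm4 (6.80-fold) and Sp5 (4.75-fold). In the remaining epithelial cells Axin2 (2.26-fold) joined Smoc2 (3.73-fold), Olfm4 (13.0-fold) and Sp5 (8.88-fold), so that 4 were higher (5.29% of genes) and 0 lower (13.7%). Mex3a was close to the line on the low side, at log2 ratios of -0.93 and -0.85. Taken as a mean of each cell's CPM in place of a sum, only Olfm4 (1.95) was higher in all epithelial cells and Mex3a (-1.48) was lower, with Smoc2 at 0.92 and Sp5 at 0.84.

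Crypt progenitor-like cells allowed the comparison within a class of like markers, in 806 cells at E17.5 and 271 in the adult. The E17.5 cells carry the name from their markers alone, since crypts form only after birth. In the adult class 14 of 15 G2/M genes had a negative log2 ratio to E17.5, and 1 was called lower. Their median was -0.64 against -0.05 for all genes, and their part in the members' differences was not tested. Lgr5, Ascl2 and both ligases differed by less than 2-fold, and the secreted products Smoc2 and Olfm4 by more. Lgr5 was 21.3 CPM in the adult and 28.8 at E17.5, Ascl2 39.0 and 34.6, Rnf43 31.6 and 32.9, and Znrf3 11.6 and 8.62. Smoc2 was 103 against 31.6 CPM (3.27-fold higher in the adult), Olfm4 1828 against 188 (9.71-fold) and Sp5 14.6 against 2.19 (6.66-fold).

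Thus 3 members were at least 2-fold higher in the adult class (8.45% of genes) and 0 were lower (6.14%). Axin2, at 51.2 against 26.2 CPM, lay just under the line with a log2 ratio of 0.94. Tnfrsf19 and Mex3a stayed low in both, at 1.62 and 0.99 CPM and at 5.30 and 7.46 CPM.

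The adult class joined 2 clusters of unlike depth, 136 cells with a median of 1972 UMIs and 135 cells with 42721, while the median of the E17.5 class was 28758. Olfm4 was 2462 CPM in the shallow and 1789 in the deep cluster, Smoc2 84.7 and 104, Sp5 15.4 and 14.5, and Axin2 48.8 and 51.4. Each of these lay above the E17.5 class. Lgr5 was 7.70 and 22.2 CPM, and Ascl2 41.1 and 38.9.

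In enterocyte-like cells, the absorptive cells, 771 at E17.5 and 59 in the adult, 2 of 9 members tested were higher in the adult (11.2% of genes) and 4 lower (24.2%). Sp5 was 16.1 against 0.66 CPM (33 and 13 UMIs, 24.4-fold), close to its 14.6 in adult crypt progenitor-like cells, and Smoc2 5.87 against 1.12 (12 and 22 UMIs). Ascl2 had 0 against 83 UMIs, at least 2.87-fold lower, and Znrf3 3 against 90 UMIs, 3.11-fold lower with a counting interval of the log2 ratio of -3.94 to -0.046. For Lgr5 (0 against 30 UMIs) and Mex3a (0 against 36) the count of 0 allows a fold as small as 1.04 and 1.25, so their calls rest on the pseudocount. All 15 G2/M genes were lower in the same adult cells (median log2 ratio -4.99), and their part in the result was not tested.

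Single cells thinned to 2000 UMIs showed the same order for Olfm4. It was in 68.4% of adult crypt progenitor-like cells (130 of 190) and in 24.9% at E17.5. In adult enteroendocrine-like and tuft-like cells, which are not known to make it, it was in 12.1% and 10.3%, with median depths of 3191 and 4114 UMIs per cell. Shares in classes not known to make a gene are the background against which the crypt share is read, and the source of these UMIs was not tested. Lgr5 was in 3.16% of the adult class (6 of 190) and 5.43% of the E17.5 class (42 of 774), and in 0.23% of adult enteroendocrine-like cells. It was also in 24 of 902 adult tuft-like cells and 5 of 72 adult Paneth-like cells. Its share thus did not set the adult crypt class apart from the tuft-like and Paneth-like cells.

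The share of cells with several members was highest in the adult crypt class among the classes counted. Of its thinned cells 10.0% held UMIs of 3 or more members, with 5 as the most, and 27.9% held none. The E17.5 crypt class had 1.81% and 57.6%, and E12.5 epithelial cells 0.358% and 67.1%. In adult Paneth-like cells 4.17% held 3 or more. All 6 adult Lgr5 cells in the class also held Olfm4, against 16 of 42 at E17.5. Over all thinned cells of the class Olfm4 was in 130 of 190 in the adult and 193 of 774 at E17.5. A link between Lgr5 and Olfm4 was not tested. Olfm4 was also in 12.1% of adult enteroendocrine-like cells, and the part of that background in these counts was not tested.

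**Figure D3:**
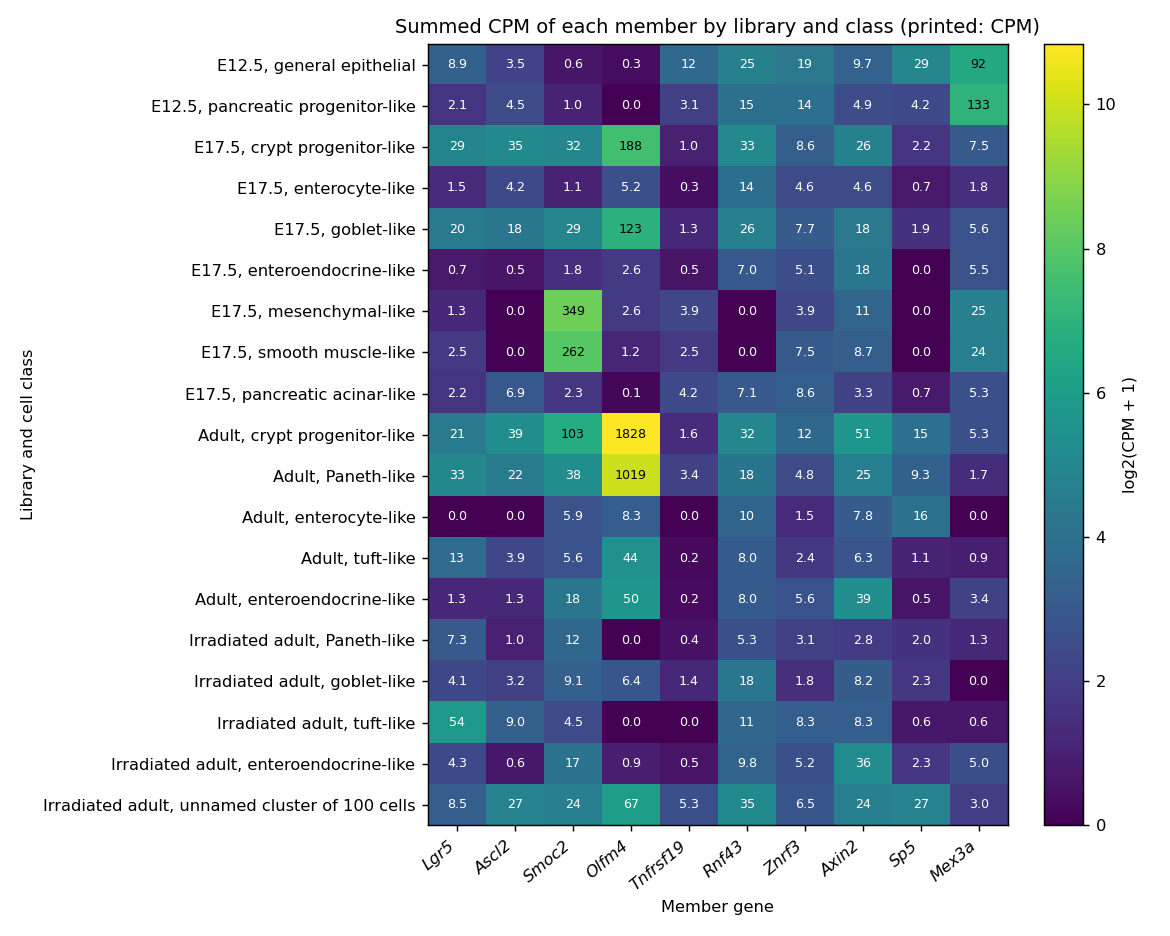
Level of the 10 genes in each cell class of the 4 libraries, as printed CPM with colour for log2(CPM + 1), 1 row per library and class. Olfm4 reaches 1828 CPM in adult crypt progenitor-like cells and 1019 in adult Paneth-like cells, against 188 in the E17.5 crypt class.

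Members were also compared between cycling crypt progenitor-like cells and the others. Cycling cells were those with at least 3 UMIs over 15 G2/M genes after thinning to 2000 UMIs. In all E17.5 epithelial cells the cycling cells held more Lgr5, at 19.8 against 7.02 CPM, and more Olfm4, at 122 against 45.3. Within the crypt class the order was the other way, with Lgr5 at 27.0 in cycling against 34.9 CPM in other cells and Olfm4 at 176 against 232. Axin2 was 26.5 and 24.7 CPM there. In the adult class Lgr5 was 17.3 against 29.4 CPM and Olfm4 1577 against 2317, while Smoc2 was 100.3 against 109.5. With at least 5 G2/M UMIs required, adult Lgr5 was 21.6 against 21.4 CPM, Smoc2 108.5 against 99.5 and Ascl2 43.3 against 36.0 (37.3 against 43.0 at 3 UMIs), so the order of these 3 depended on the line. Olfm4 kept its order, at 1787 against 1876. Since cells were scored at equal depth, the line does not itself select deeper cells. Levels were summed from all UMIs of the cells, and the part of depth in these differences was not tested.

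The third comparison set the irradiated adult against the adult, the library that also served the comparison with E17.5. In all epithelial cells 3 members were lower after irradiation (4.62% of genes) and 0 higher (2.62%). Olfm4 was 56.1-fold lower (log2 ratio -5.68), Ascl2 2.63-fold (-1.23) and Smoc2 2.36-fold (-1.19). As a mean of each cell's CPM only Olfm4 kept the call, at -5.30, with Ascl2 at -0.65 and Smoc2 at -0.39, and Lgr5 changed sign, to 0.53. The G2/M list was lower in all 15 of its genes, with a median log2 ratio of -1.90, and its part in the members' differences was not tested.

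In the remaining epithelial cells 5 members were lower (13.3% of genes) and 0 higher (7.46%). Lgr5 was 6.98 CPM against 21.1 in the adult, Ascl2 10.47 against 27.6 and Axin2 13.3 against 36.4. Smoc2 was 15.7 against 68.6 CPM, and Olfm4 24.6 against 1296. Sp5, at 11.5 against 13.3 CPM, and Rnf43, at 17.7 against 24.1, differed by less than 2-fold. As a mean of each cell's CPM Axin2 lost its call (-0.12), and with a pseudocount of 10 CPM so did Lgr5 (-0.87), Ascl2 (-0.88) and Axin2 (-0.99). Without the 391 shallow cells nearest the enteroendocrine markers, a setting chosen after seeing the data, the same 5 were lower (14.7% of genes) and 0 higher, with Axin2 at -1.60, and at -1.49 as a mean of each cell's CPM, where Ascl2 was -0.995. The populations differed in make-up. The naming rule gave 271 crypt progenitor-like cells in the adult and none in the irradiated library, a difference that depends on the cluster described next. Among these cells, 90 Paneth-like cells held 46.3% of the irradiated library's UMIs.

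Most Ascl2, Sp5 and Olfm4 UMIs of the irradiated library came from 1 unnamed cluster of 100 deep cells (median 49348 UMIs), led by Apoa4, an enterocyte apolipoprotein, Ccnd1, a G1 cyclin, and Ces2e. Its nearest marker list was the crypt progenitor one, with 8 of those markers detected. Without a crypt progenitor marker among its 10 top genes, an adult cluster of 136 cells kept that name. The irradiated cluster stayed unnamed because, with none there either, its top genes held the enterocyte marker Apoa4. It held 141 of the 187 Ascl2 UMIs, 144 of the 225 Sp5 UMIs and 351 of the 392 Olfm4 UMIs of the epithelial cells, but 45 of 286 Lgr5, 127 of 1018 Axin2, 127 of 612 Smoc2 and 183 of 501 Rnf43 UMIs. Ascl2 was 26.8 CPM there, Axin2 24.1, Rnf43 34.7, Smoc2 24.1 and Lgr5 8.54. Sp5 was 27.3 CPM, above the 14.6 of the adult crypt progenitor-like cells, and Olfm4 was 66.6 CPM, below their 1828. Without the unnamed clusters 9 members were lower (44.2% of genes), and without the Paneth-like cells of both libraries 3 were lower (9.05% of genes) and 1, Tnfrsf19 at log2 1.13, higher (12.6%). Lgr5 (-1.60 and -1.17), Smoc2 (-2.51 and -2.02) and Olfm4 (-8.68 and -4.91) were lower both ways.

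A cluster of 74 cells led by Ly6d, Clu, a chaperone gene seen in regenerating epithelium, and Lgals3 held 0 UMIs of Lgr5, Ascl2 and Smoc2 and 3 of Sp5. Its median was 1899 UMIs per cell, so little of a low gene could be detected.

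Within Paneth-like cells, secretory neighbours of the stem cells, most members were lower after irradiation. Of the 9 members with enough UMIs, 8 were at least 2-fold lower (13.6% of genes) and 0 higher (6.58%). Olfm4 went from 3604 UMIs in 72 adult cells (1019 CPM) to 0 UMIs in 90 irradiated cells, at least 2387-fold lower with 3 UMIs taken as the floor over the class. Ascl2 was 1.00 against 21.8 CPM in the adult (7 and 77 UMIs), Lgr5 7.26 against 32.8, Axin2 2.85 against 24.6 and Smoc2 11.8 against 38.4. Sp5 (1.99 against 9.33), Rnf43 (5.26 against 17.5) and Tnfrsf19 (0.43 against 3.39, from 3 and 12 UMIs, with a counting interval of the log2 ratio of -5.46 to -1.10) were lower too, while Znrf3, at 3.13 against 4.80 CPM, was under the line and Mex3a had under 10 UMIs.

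Crypt and cell cycle genes were lower in the same cells, while the Paneth markers were near level. Of 14 tested G2/M genes 14 were lower (median log2 ratio -2.72), as were 17 of 20 other target and crypt base genes, and the median depth was 30927 UMIs in the adult and 99768 in the irradiated cells. The 10 Paneth markers summed to 421785 CPM in the irradiated and 439243 in the adult Paneth-like cells, and the 12 crypt progenitor markers to 161 and 505 CPM, with none at 0 in either. The part of the crypt, cell cycle and target genes and of depth in the result was not tested. The crypt progenitor markers and the other target list share genes, such as Cd44, Cdca7 and Myc, so they are not separate observations. After thinning, Olfm4 was in 44.4% of adult Paneth-like cells (32 of 72) and in 0 of 86 irradiated ones, which allows a share of cells with a UMI of up to 3.49%, the share that 3 cells would give.

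**Figure D4:**
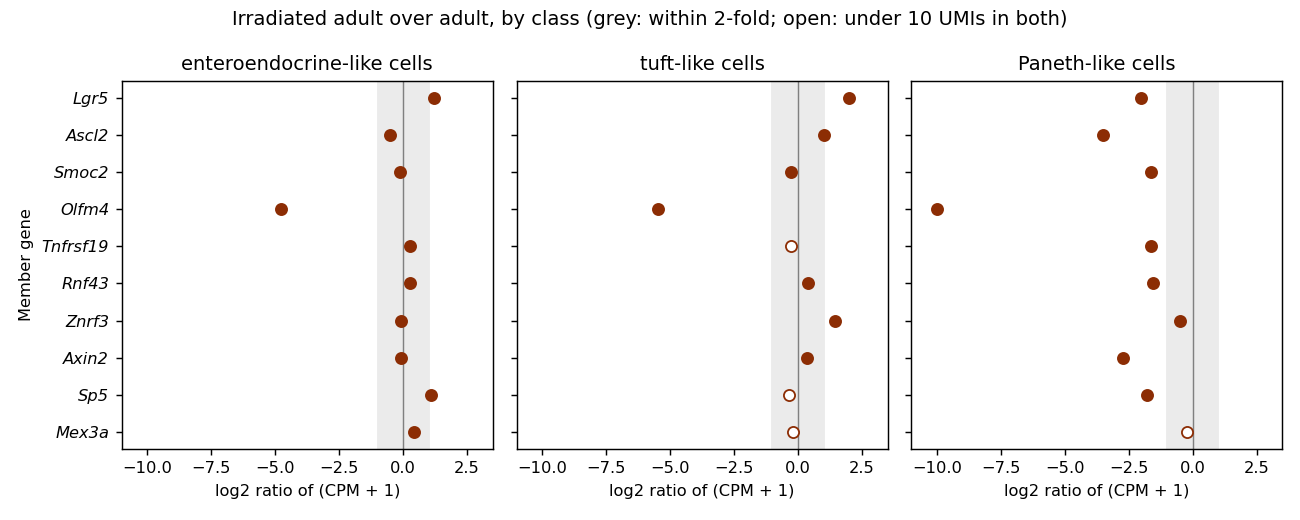
Log2 ratio of each member, irradiated adult over adult, in enteroendocrine-like, tuft-like and Paneth-like cells, with grey for ratios within 2-fold and open points for under 10 UMIs in both libraries. Olfm4 is below the grey band in all 3, while Lgr5 is below it in Paneth-like cells (-2.03) and above it in tuft-like (1.99) and enteroendocrine-like (1.19) cells.

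Tuft-like cells, chemosensory cells of the epithelium, held more Lgr5 in the irradiated library. Lgr5 was 13.0 CPM in the adult (60 UMIs in 975 cells) and 54.5 in the irradiated adult (85 UMIs in 289 cells), 4.19-fold higher. After thinning it was in 2.66% of adult tuft-like cells (24 of 902, 1.71 to 3.93%) and 7.98% of irradiated ones (19 of 238, 4.87 to 12.2%), intervals that did not overlap. In enteroendocrine-like cells of the same libraries, whose median depths were 3191 and 9976 UMIs against 4114 and 4473 in tuft-like cells, the shares were 0.23% and 0.72%. Ascl2 (8.97 against 3.90 CPM, 14 and 18 UMIs) and Znrf3 (8.33 against 2.38 CPM, 13 and 11 UMIs) were also called higher, from few molecules. Together 3 members were higher in tuft-like cells (4.51% of genes) and 1 lower (3.08%), Olfm4, at least 22.9-fold (203 UMIs to 0), where the adult share was the 10.3% given above. Within the adult the tuft-like clusters differed, from 0 to 23.7 CPM of Lgr5.

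In enteroendocrine-like cells, the hormone producers of the epithelium, Lgr5 was 4.31 CPM in the irradiated and 1.33 in the adult, and Sp5 2.27 against 0.55. These were the 2 members called higher (2.40% of genes), and Olfm4, at 0.86 against 50.4 CPM, was the 1 called lower (2.83%), where the adult share was 12.1%. Most of the Lgr5 came from 1 of the clusters, with 74 of the 95 UMIs in 192 cells led by Afp, Chga and Tph1. There it stood at 25.5 CPM and was in 24.0% of unthinned cells, with at most 4 UMIs in a cell, against 0 to 2.50 CPM in the other irradiated enteroendocrine-like clusters. Its median mitochondrial share was 11.9%, against 3.71 to 14.7% in the others, and the part of that in the result was not tested. By leading transcript, 52 of the 95 UMIs lay in Tph1 cells, 26 in Cck and 15 in Gip cells. The adult enteroendocrine-like clusters ranged from 0.50 to 1.91 CPM of Lgr5. For Sp5, 22 of 50 UMIs lay in another cluster of 163 cells (11.98 CPM), which had 0 UMIs of Lgr5.

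Apart from Olfm4, Axin2 and Smoc2 had the highest levels of the members in adult enteroendocrine-like cells. Axin2 was 38.8 CPM in the adult class, near its 51.2 in adult crypt progenitor-like cells, and 36.4 in the irradiated adult, against 18.3 at E17.5. Smoc2 was 18.4 CPM in the adult class, against 103 in the crypt class, Rnf43 7.998 against 31.6, Znrf3 5.57 against 11.6 and Mex3a 3.45 against 5.30. Between E17.5 and adult enteroendocrine-like cells 3 members were higher in the adult (11.4% of genes): Axin2 (2.12-fold), Smoc2 (9.95-fold) and Olfm4 (19.2-fold), and 0 were lower (9.31%). Olfm4 in adult enteroendocrine-like cells was read above as background, and the source of its UMIs was not tested.

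Enteroendocrine-like cells were then grouped by which of 7 transcripts (Gip, Cck, Nts, Ghrl, Gcg, Sst and Tph1) led in the cell, a grouping chosen after the values were seen. The leading transcript needed at least 3 UMIs, and groups of few cells were left out. This left no Gcg group in the adult and no Nts, Ghrl or Gcg group in the irradiated adult. Axin2 was highest in adult cells led by Nts, which encodes neurotensin, or Cck, cholecystokinin. In the adult it was 98.7 CPM in Nts cells (31 UMIs in 112 cells), 79.1 in Cck cells (69.5 to 89.7), 48.7 in the 34 Ghrl cells (25.2 to 85.1, overlapping Nts and Cck), 29.8 in Gip cells, 16.0 in Tph1 cells and 15.5 in Sst cells. In the irradiated adult it was 57.5 in Cck, 29.8 in Gip, 21.0 in Sst and 19.4 in Tph1 cells, and in neither library were Sst and Tph1 cells separated by their intervals. At E17.5 it was 33.7 in Nts, 22.1 in Gcg, 20.1 in Cck, 18.2 in Ghrl, 12.1 in Gip, 11.3 in Tph1 and 5.71 in Sst cells.

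Gip cells make the incretin of the proximal intestine. Among the groups by leading transcript, Smoc2 was highest in them in the adult and irradiated adult, but not at E17.5. It stood at 45.2 CPM in the 1229 adult Gip cells and at 0 to 6.37 in the other adult groups. In the irradiated adult it was 83.0 CPM in 512 Gip cells and 1.97 to 7.29 elsewhere, and at E17.5 it was 0 to 7.36 in every group. After thinning, 8.61% of adult and 13.0% of irradiated Gip cells held a Smoc2 UMI. Outside the epithelium, Smoc2 was 349 CPM in E17.5 mesenchymal-like cells, 262 in smooth muscle-like and 256 in mesothelial-like cells, above its 31.6 in the E17.5 crypt class.

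**Figure D5:**
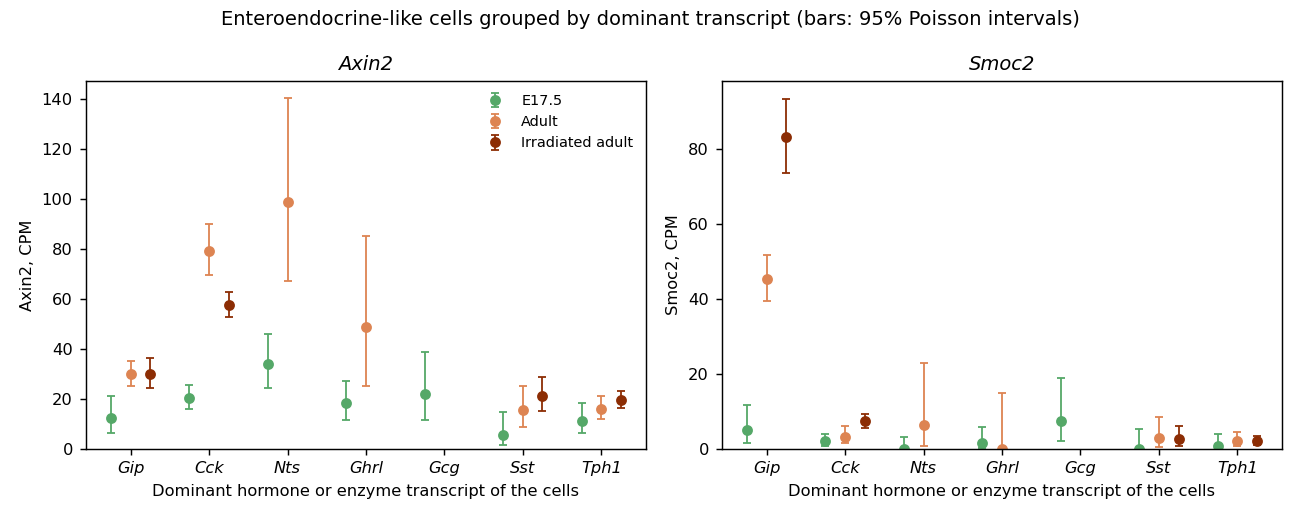
Levels of Axin2 and Smoc2 in enteroendocrine-like cells grouped by leading hormone transcript, in CPM with exact Poisson 95% intervals, by library. Adult Axin2 is highest in Nts (98.7) and Cck (79.1) cells, and Smoc2 is highest in the Gip cells of the adult (45.2) and irradiated adult (83.0).

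The other genes of the pathway were read from 7 lists of 100 genes, written from general knowledge. From E12.5 to E17.5, where 14.5% of all genes were lower and 13.3% higher, 7 of 15 receptors tested were called lower and 0 higher in epithelial cells, with a median log2 ratio of -0.81 against -0.14 for all genes. The Frizzled receptor Fzd2 went from 65.1 to 2.96 CPM and Fzd10 from 19.7 to 0.47. Of the nuclear factors 4 of 12 were lower and 0 higher, among them the TCF family members Tcf7l1 (33.0 to 1.77 CPM), Tcf7 and Lef1. Of the secreted and membrane inhibitors 6 of 14 were lower, led by Sfrp2 and Sfrp5 (65.6 to 5.56 CPM), and 2 higher.

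Ligands split, with 4 of 12 lower, such as the non-canonical Wnt5a (9.98 to 0.82 CPM), and 2 higher, such as Wnt3 (0.20 to 3.23), which Paneth cells are known to make. The destruction complex list had 1 of 13 lower and 0 higher, and the R-spondin list 0 of 3 either way. Of 19 other target and crypt base genes 6 were higher, such as the chloride channel regulator Clca3b (0.16 to 28.3 CPM) and Myc, and 6 lower, such as Igfbp4.

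From E17.5 to the adult, in crypt progenitor-like cells, 12 of 20 other target and crypt base genes tested were higher (8.45% of all genes) and 0 lower (6.14%), with a median log2 ratio of 1.22 against -0.05 for all genes. Vdr, the vitamin D receptor, was 132 against 6.73 CPM, Clca3b 576 against 60.1, Gkn3 43.0 against 1.93 and the adhesion receptor Cd44 35.3 against 4.76. Cd44, Cdca7 and Myc of this list are also among the markers that named the crypt class. In all epithelial cells the count was 8 of 20 higher (12.5%) and 1 lower (12.7%), and Wnt3 was 21.6 against 3.23 CPM. In enterocyte-like cells it was 5 of 17 higher (11.2%) and 7 lower (24.2%).

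In the irradiated adult the same list had 6 of 20 lower (4.62% of all genes) and 1 higher (2.62%) in all epithelial cells, with a median of -0.44 against -0.04. Gkn3 was 2.86 against 16.4 CPM, Clca3b 36.3 against 167 and Cdca7 6.96 against 32.3, while Igfbp4 was 57.2 against 23.8. Few other pathway genes were called: Fzd5 (13.6 against 37.7 CPM) and Fzd2 of 14 receptors, and Tle4, a co-repressor, of 11 nuclear factors were lower. Wnt10a, a ligand, had 83 UMIs in the irradiated and 0 in the adult epithelial cells, and of 8 inhibitors and 13 destruction complex genes none was called.

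Likeness was measured as Pearson r of log2 CPM over the 66 clusters of at least 50 cells in the 4 libraries, among 8133 genes. The clusters share libraries and depth, so the values describe and test nothing. Nearest to Lgr5 were Slc12a2, a chloride cotransporter (0.74), Myb (0.70), Cdk2 (0.69), Hist1h1a (0.65) and Pold1 (0.64), the last 3 genes of DNA replication and the cell cycle, and of the other members Ascl2 came closest (0.74). Nearest to Olfm4 were Clca3b (0.83), Far2 (0.76) and Dmbt1 (0.72). Axin2 stood apart from Lgr5, at 0.01, and its nearest genes were Muc4 (0.70), Kcnh3 (0.69) and Fosb (0.68).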

How the data were processed

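Per the labels, sorted intestinal epithelial cells of Bmi1-GFP mice were sequenced with the 10x 3' kit, which reads 1 tag per molecule, so no gene length term was used. The deposited values were raw UMI counts per gene and barcode, not normalized. The submitters' processing notes name Cell Ranger 3.1.0 and mm10. Of the file IDs, 31011 (99.9%) matched GENCODE M21 (GRCm38), which gave gene positions. Barcodes under 500 genes or above 20% mitochondrial UMIs were dropped, and the cells scored highest by Scrublet were removed at 0.8% per 1000 barcodes. Within each library, 2000 variable genes, without the 10 members and the pathway lists, gave 30 principal components, 20 neighbours and Leiden clusters at resolution 1 (scanpy 1.11.5, leidenalg 0.10.2). Clusters were named from 17 marker lists, by thresholds revised after the clusters were seen, and those that met no rule stayed unnamed. The crypt progenitor name was barred at E12.5, where clusters that scored for it were called general epithelial or left unnamed. It was kept at E17.5, although crypts form only after birth. On simulated Poisson counts the ratio procedure recovered large planted changes in genes with many UMIs. The simulation held no differences between cells or replicate libraries, so it checks the code alone. The 10 genes, the lists and the marker sets were chosen with earlier results of these data known. Genes named from a list are the up to 6 with the highest absolute log2 ratio among those called with at least 50 UMIs, and likeness names the nearest 5. Alternatives were other cell filters, doublet rules, resolutions, scalings, pseudocounts and thinning depths.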

Additional observations from a re-analysis of the deposited data

Results flagged for a closer look

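Results are listed here where the irradiated over adult log2 ratio of a member was past the 2-fold line in opposite directions in different cell classes. The differences between classes were not tested, since each group is 1 library. Lgr5 was 1.99 in tuft-like and 1.19 in enteroendocrine-like cells but -2.03 in Paneth-like cells. Ascl2 was 1.03 in tuft-like cells, from 14 and 18 UMIs, and -3.51 in Paneth-like cells. Sp5 was 1.08 in enteroendocrine-like cells, from 50 and 7 UMIs, and -1.79 in Paneth-like cells.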

How the results depend on the processing

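No paired analysis was possible because each group is 1 library with no replicate numbers, and none could be left out. Counts of members past 2-fold stayed within 1.5 times in 176 recomputed values and moved further in 16. At other thinning depths or none, shares left their 95% interval in 200 values and stayed in 40, log2 ratios moved in 327 and not in 633, and CPM in 447 and not in 1923, and no direction reversed among called values. With a mean of each cell's CPM, adult over E17.5 gave 1 higher (3 as reported) and 1 lower (0) in all epithelial cells and 1 lower (0) in the remaining epithelial cells, also without the cells nearest the enteroendocrine markers, and irradiated over adult gave 1 lower (3) in all epithelial cells. With a pseudocount of 10 CPM, E17.5 over E12.5 gave 2 lower (4) in both populations, without Tnfrsf19 and Znrf3, adult over E17.5 gave 1 higher (3), and irradiated over adult gave 1 lower (3) and, in the remaining cells, 2 lower (5). Adult over E17.5 gave 1 lower (0) with a pseudocount of 0.1 CPM, in both populations, and with mitochondrial and ribosomal protein genes left out of the total, in all epithelial cells. Leaving out unnamed clusters (9 lower) or Paneth-like cells (3 lower, 1 higher) in irradiated over adult, where 5 were lower and 0 higher, was chosen after seeing the data. Over the settings, Ascl2 in E17.5 over E12.5, all epithelial cells, fell as low as a log2 ratio of 0.97. Axin2 in adult over E17.5, the remaining epithelial cells, fell to 0.83. Both are under the line of a call. The cause of these differences was not tested. Depth limits the adult library most, at a median of 3606 UMIs per cell.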
